A study of Arabidopsis thaliana with 18 samples.

Results

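The 10 genes described here encode daytime and evening regulators of the Arabidopsis circadian clock, GIGANTEA among them. They were taken by gene identifier from the 32548 genes measured. They are the pseudo-response regulators PRR9 (AT2G46790), PRR7 (AT5G02810), PRR5 (AT5G24470), PRR3 (AT5G60100) and TOC1 (AT5G61380), the evening complex genes ELF3 (AT2G25930), ELF4 (AT2G40080), LUX (AT3G46640, named PCL1 in RefSeq) and its close relative BOA (AT5G59570), and GI (AT1G22770). Messenger RNA was sequenced from whole 7-day-old Arabidopsis thaliana seedlings kept at 22 °C on plates in days of 16 h light and 8 h dark. Plants stayed at 22 °C until harvest, or spent the last 1 h at 37 °C. The genotypes were the wild type Col-0, sant-null, a quadruple mutant of SANT1, SANT2, SANT3 and SANT4, whose products carry a SANT domain, and hda6, a line from EMS mutagenesis altered in the histone deacetylase gene HDA6. The 18 libraries form 6 groups of 3, and the labels do not say whether the 3 came from separate sowings or plates, so a p-value reflects the scatter among these libraries alone, which may be technical. The series asked what the SANT proteins do to transcription in heat. The hour of harvest, on which the level of clock genes depends, and the hda6 allele were stated in none of the sources used here. Nor was it stated whether all groups were harvested at the same hour. Differences between groups and differences in hour of day therefore cannot be told apart in any value below.

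In the Arabidopsis clock the PRR genes are expressed one after another from morning to evening, PRR9 first and TOC1 last, and their proteins repress the morning genes CCA1 and LHY. ELF3, ELF4 and LUX proteins form the evening complex, which represses PRR9, LUX itself and growth genes such as PIF4 at night, and which is known to lose activity in warm conditions. GI protein stabilizes the F-box protein ZTL, which targets TOC1 and PRR5 for degradation, and it acts in flowering under long days. PRR proteins are known to work with TOPLESS-family co-repressors and with the histone deacetylases HDA6 and HDA19.

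The promoters of 5 of these genes are shown because these 5 genes carried the heat calls with the largest size in Col-0 in the authors' deposited table, PRR9, PRR7, LUX and BOA upward and TOC1 downward. The choice depends on that scale. On the other scale described below BOA was not called, and ELF3, ELF4 and GI changed more than LUX. Each line gives the 250 bases before the annotated gene start, read 5′ to 3′ on the strand of the gene, from RefSeq, build TAIR10.1. The windows are chr2:19232357-19232606 (plus strand) for PRR9, chr5:642031-642280 (minus strand) for PRR7, chr5:24674713-24674962 (plus strand) for TOC1, chr3:17182792-17183041 (plus strand) for LUX and chr5:24003638-24003887 (plus strand) for BOA. Capitals mark matches to the motifs named below.
PRR9: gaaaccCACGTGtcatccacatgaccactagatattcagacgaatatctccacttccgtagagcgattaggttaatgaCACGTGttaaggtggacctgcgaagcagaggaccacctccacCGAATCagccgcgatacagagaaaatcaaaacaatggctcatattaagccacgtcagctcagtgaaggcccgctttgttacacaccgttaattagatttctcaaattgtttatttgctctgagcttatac
PRR7: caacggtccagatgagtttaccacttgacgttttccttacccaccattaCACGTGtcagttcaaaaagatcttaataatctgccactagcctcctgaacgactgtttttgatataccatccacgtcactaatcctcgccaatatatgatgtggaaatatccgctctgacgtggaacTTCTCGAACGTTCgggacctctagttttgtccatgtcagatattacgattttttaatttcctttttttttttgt
TOC1: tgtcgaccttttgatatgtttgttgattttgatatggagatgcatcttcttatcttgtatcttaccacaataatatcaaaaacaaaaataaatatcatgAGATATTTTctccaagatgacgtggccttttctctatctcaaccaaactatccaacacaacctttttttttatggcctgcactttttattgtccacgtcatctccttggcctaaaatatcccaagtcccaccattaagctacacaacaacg
LUX: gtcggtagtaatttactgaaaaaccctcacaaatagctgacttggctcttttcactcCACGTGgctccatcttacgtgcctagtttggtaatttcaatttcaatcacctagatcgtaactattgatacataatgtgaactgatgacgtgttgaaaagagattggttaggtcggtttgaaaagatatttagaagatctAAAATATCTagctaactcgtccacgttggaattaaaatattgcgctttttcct
BOA: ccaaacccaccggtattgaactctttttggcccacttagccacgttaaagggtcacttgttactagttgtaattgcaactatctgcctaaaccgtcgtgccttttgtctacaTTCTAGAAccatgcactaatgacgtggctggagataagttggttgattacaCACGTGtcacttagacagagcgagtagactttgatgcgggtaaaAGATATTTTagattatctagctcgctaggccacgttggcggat

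The letters searched on both strands were the evening element AAAATATCT, the CCA1-binding site AAAAATCT, the G-box CACGTG, the LUX sites GATACG and GATTCG, and heat shock elements, the sites of heat shock transcription factors. These last were searched as 2 units, GAANNTTC or TTCNNGAA, and as 3 units, GAANNTTCNNGAA, which contains both forms of 2 units. PRR7 held the 3-unit heat shock element 74 bases before its start, which 0.835% of 27561 promoters of 500 bases held, and a G-box 201 bases before it. PRR9 held G-boxes 244 and 172 bases before its start, a LUX site (GATTCG) at 130 and a CCA1-binding site at 316. The evening element, present in 4.43% of promoters, lay 53 bases before LUX, 43 before BOA and 151 before TOC1, and PRR5 held it at 292 and 187. LUX and BOA each held a G-box as well, at 193 and 87, a motif of 9.31% of promoters, and BOA held TTCNNGAA at 138. ELF3 and ELF4 held the LUX site GATACG at 83 and 92 bases, as did 8.76% of promoters, and ELF3 held 2-unit heat shock elements at 239 and 370. TOC1 and LUX held GATTCG at 328 and 339, as did 15.5% of promoters, and PRR5 held a CCA1-binding site at 198, as did 12.5%. The 2-unit forms GAANNTTC and TTCNNGAA occurred in 18.3% and 15.6% of promoters. No listed motif was found in the windows of PRR3 and GI. A match describes the letters of these windows and is no evidence of binding.

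**Figure D1:**
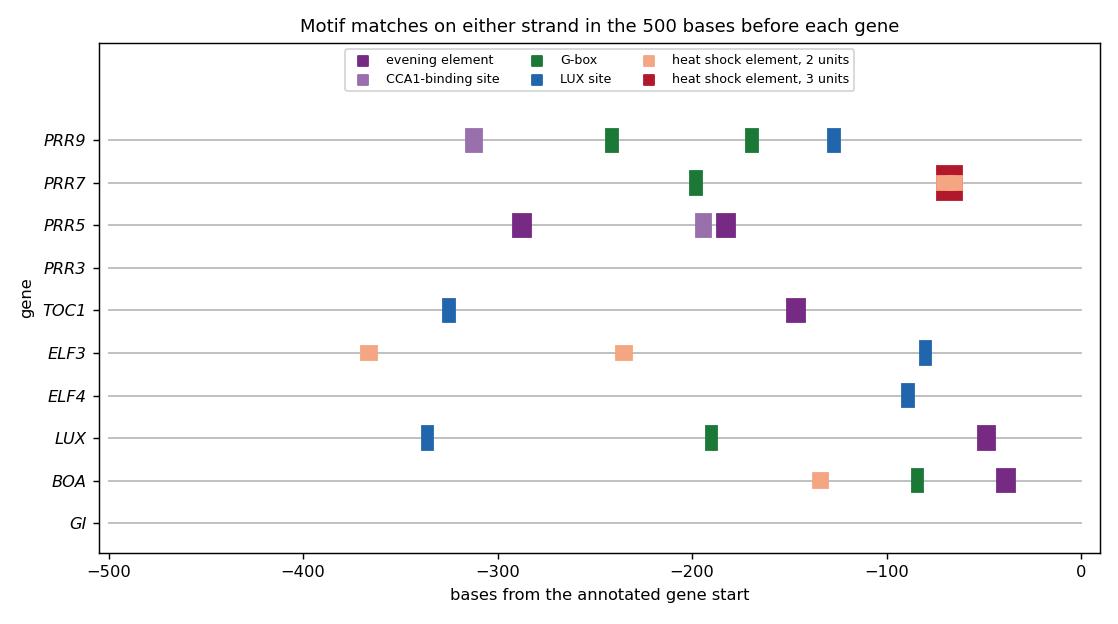
Matches to the listed motifs in the 500 bases before each gene, with the distance from the annotated start in bases on the x axis and a gene on each line; block height separates the overlapping heat shock elements and carries no value. PRR7 alone among the 10 genes shows the 3-unit heat shock element, 74 bases before its start, and the lines of PRR3 and GI are empty.

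Of the 10 genes, 7 reached an FPKM of 1 in at least 1 group, 4 did so in every group, and PRR5, PRR3 and BOA did so in none. FPKM, fragments per kilobase of exon and per M fragments (M, mega), is given by the authors as a single value per group, so levels carry no SD and overlap between libraries cannot be seen. The authors' deposited tables hold log2 fold changes, each given here with its standard error. Their mean normalized counts summed to between 20.7 and 23.2 M per library over the 5 comparisons. For single genes the mean normalized count in the authors' deposited tables ran from 5.82 to 17.8 for PRR3, 13.7 to 26.6 for BOA, 11.7 to 30.4 for PRR5 and 17.5 to 45.0 for ELF4, against 1828 to 2685.0 for PRR7. A gene is called where the adjusted p is under 0.05. HDA6 had an FPKM of 6.83 and 3.96 in Col-0 (22 °C and 37 °C), 6.94 and 4.03 in sant-null, and 7.59 and 3.44 in hda6, so its transcript level does not check the hda6 label. Shoot markers were abundant in every group, with a summed FPKM of RBCS1A, LHCB1.1 and RCA between 9900.1 and 12309, the root markers PRP3, EXP7 and PRP1 summed to 3.89 to 28.3, and the floral genes AP3 and AG were at most 0.181.

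Since FPKM is a level per length, levels can be set beside each other: PRR7, PRR9 and GI ranked 1, 2 and 3 among the 10 genes in all 6 groups. PRR3 and BOA were at or under 0.246 in every group. Whole seedlings were used, so fewer cells of a type and less RNA per cell cannot be told apart in any value below.

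With heat in Col-0 PRR9, PRR7 and LUX were called higher and TOC1 lower on both scales used here, while BOA was called higher on the deposited scale alone and GI was called higher on that scale and lower on the FPKM scale. PRR9 (chr2:19232607-19235179, plus strand), the earliest repressor of the series, had an FPKM of 7.67 at 22 °C and 13.0 at 37 °C in Col-0, 9.78 and 13.2 in sant-null, and 9.04 and 9.98 in hda6. PRR7 (chr5:637681-642030, minus strand), which follows it, had an FPKM of 13.2 and 19.4 in Col-0, 13.4 and 17.8 in sant-null, and 12.4 and 14.5 in hda6. Both were higher at 37 °C than at 22 °C in every genotype, and both had their lowest heated value in hda6. PRR9 rose by 1.78 ± 0.08 on the log2 scale with heat in Col-0, per the authors' deposited table (3.43-fold, adjusted p = 6.08e-110). PRR7 rose by 1.57 ± 0.06 in the authors' deposited table (2.96-fold, adjusted p = 1.4e-146).

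TOC1 (chr5:24674963-24678550, plus strand), the last PRR of the day and a repressor of CCA1, had an FPKM of 2.76 at 22 °C and 0.852 at 37 °C in Col-0, 2.75 and 0.841 in sant-null, and 3.27 and 0.682 in hda6. It was lower after heat in every genotype, with the widest gap in hda6. The authors' deposited table gave -0.69 ± 0.15 for heat in Col-0 (0.619-fold, adjusted p = 2.08e-05). PRR5 (chr5:8356204-8358546, minus strand), a repressor of CCA1 and LHY, had an FPKM of 0.359 and 0.190 in Col-0, 0.493 and 0.355 in sant-null, and 0.445 and 0.136 in hda6. PRR3 (chr5:24197971-24201415, minus strand), which shields TOC1 protein from ZTL, had 0.0908 and 0.0407 in Col-0, 0.209 and 0.0524 in sant-null, and 0.112 and 0.0895 in hda6. Both were low throughout, and neither passed the test: the 95% interval in the authors' deposited table ran from -0.85 to 1.01 for PRR5 and from -1.60 to 1.36 for PRR3.

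In the evening complex LUX and BOA were called with heat in Col-0 and ELF3 and ELF4 were not; differences between these genes were not tested. LUX (chr3:17183042-17186959, plus strand), which gives the complex its DNA binding, had an FPKM of 1.44 at 22 °C and 1.74 at 37 °C in Col-0, 1.61 and 2.15 in sant-null, and 1.40 and 1.55 in hda6. BOA (chr5:24003888-24007844, plus strand), a related MYB-like factor, had 0.0675 and 0.0835 in Col-0, 0.137 and 0.246 in sant-null, and 0.137 and 0.177 in hda6. Both were higher after heat in each genotype, and the Col-0 values of BOA were the lowest of its 6. With heat in Col-0 LUX rose by 1.28 ± 0.13 (2.43-fold, adjusted p = 2.88e-23) and BOA by 1.34 ± 0.58 (2.53-fold, adjusted p = 0.0349) in the authors' deposited table. The estimate for BOA rests on about 7.77 normalized counts per library at 22 °C and 19.7 at 37 °C, and 45.9% of its exonic bases are shared with a gene of the opposite strand.

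ELF3 (chr2:11058944-11063324, plus strand), the scaffold of the complex, had an FPKM of 2.29 and 1.19 in Col-0, 2.66 and 1.15 in sant-null, and 2.59 and 0.806 in hda6. ELF4 (chr2:16734294-16734953, minus strand), its small partner, had 1.34 and 0.686 in Col-0, 1.63 and 0.500 in sant-null, and 1.76 and 1.08 in hda6. GI (chr1:8061751-8067790, plus strand) had 4.18 and 2.54 in Col-0, 4.77 and 2.70 in sant-null, and 4.59 and 1.88 in hda6. All of these FPKM values were lower at 37 °C than at 22 °C, and for ELF3 and GI the heated value was lowest in hda6. In the authors' deposited table, which is scaled otherwise, ELF3 stood at 0.07 ± 0.17 (95% interval -0.27 to 0.40) and ELF4 at 0.06 ± 0.40 (-0.72 to 0.85). GI was higher there, at 0.29 ± 0.10 (1.23-fold, adjusted p = 0.00737, the authors' deposited table), and its direction flips on the FPKM scale.

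**Figure D2:**
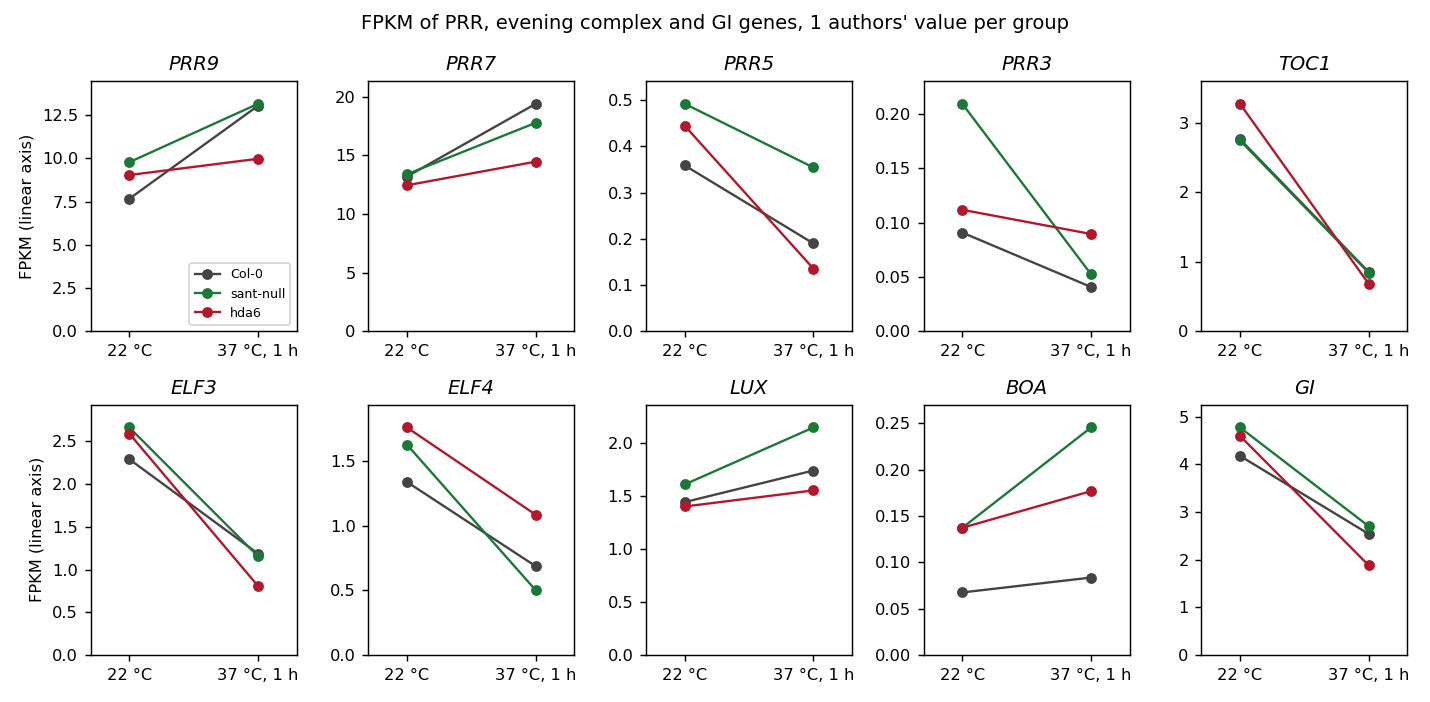
FPKM on a linear axis for each gene at 22 °C and after 1 h at 37 °C; each point is the authors' single value for a group, joined by genotype, so no error is shown. The lines of PRR9, PRR7, LUX and BOA run upward and those of the other 6 genes downward in all 3 genotypes, and PRR7 in hda6 ends at 14.5 against 19.4 in Col-0.

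With heat in Col-0 the authors' deposited table called 5 of the 10 genes higher, beside 30.1% of all 23195 genes tested, and 1 lower, beside 29.9%. The same table had all 3 shoot markers higher (0.52 to 1.09) and all 3 root markers lower (-2.79 to -0.80) with heat in Col-0, and the derived tests gave the same directions in both mutants. Root markers were again all lower on the FPKM scale, while the shoot markers had 0 higher and 2 lower in Col-0, 1 and 2 in sant-null, and 1 and 1 in hda6; the part of these markers in the heat values was not tested. The scale decides several of these directions. From the deposited log2 fold changes to the ratios of FPKM, heat in Col-0 shifts by -1.01 for all genes alike, and the median over all genes tested goes from -0.09 to -1.10. Shifts were -1.05 for heat in sant-null and -1.06 for heat in hda6. Moved to the FPKM scale, the share of calls that were higher went from 50.2% to 7.94% for Col-0, from 54.8% to 6.65% for sant-null and from 53.6% to 5.96% for hda6. On that scale PRR9 (0.77), PRR7 (0.56) and LUX (0.27) stayed higher in Col-0, 3 of 10 genes where 6.25% of all genes were, while BOA (0.33, Benjamini-Hochberg adjusted p = 0.597 in the shifted Wald test) was no longer called. TOC1 (-1.70) stayed lower, ELF3 and ELF4 (both -0.94) were called lower, and GI reversed to lower (-0.72), 4 of 10 genes where 72.5% of all genes were lower. PRR9, PRR7, LUX and TOC1 thus kept their call and direction in Col-0 on both scales. For LUX the call on the FPKM scale was narrow (adjusted p = 0.0420 in the shifted Wald test). The median of the 10 genes was 0.19 beside -0.09 for all genes on the deposited scale, and -0.82 beside -1.10 on the FPKM scale.

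Heat within each mutant was derived from the deposited log2 fold changes with a 2-sided Wald test whose errors are upper bounds; the mean of squared errors, a smaller error, was the alternative. In sant-null 4 of 10 genes were called higher (26.1% of all genes) and 1 lower (21.5%). PRR9 rose by 1.48 ± 0.11, PRR7 by 1.46 ± 0.08, LUX by 1.47 ± 0.17 and BOA by 1.88 ± 0.65 (Benjamini-Hochberg adjusted p = 0.00959 for BOA), and TOC1 fell by 0.65 ± 0.23 (adjusted p = 0.0101). GI was at 0.23 ± 0.13 (adjusted p = 0.129, or 0.0192 with the mean of squared errors in the Wald test). The FPKM scale left PRR9, PRR7 and LUX higher (4.68% of all genes) and TOC1, ELF3, ELF4 and GI lower (65.8%), and BOA uncalled (0.83, adjusted p = 0.249).

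In hda6 heat raised 3 of 10 genes (25.4% of all genes) and lowered 2 (22.0%). PRR9 rose by 1.20 ± 0.11, PRR7 by 1.28 ± 0.08 and LUX by 1.21 ± 0.19, each past the Benjamini-Hochberg threshold of the derived Wald test. TOC1 fell by 1.20 ± 0.24 (adjusted p = 3.13e-06) and ELF3 by 0.62 ± 0.25 (adjusted p = 0.0294). GI stood at -0.23 ± 0.14 (adjusted p = 0.177) and BOA at 1.42 ± 0.68 (adjusted p = 0.0735); with the mean of squared errors both were called (0.0357 and 0.00626). On the FPKM scale PRR7 was the single gene of the 10 still called higher in hda6 (0.22, adjusted p = 0.0128), beside 4.05% of all genes, with PRR9 at 0.14 and LUX at 0.15. PRR5, TOC1, ELF3 and GI were lower on it, beside 63.8% of all genes.

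**Figure D3:**
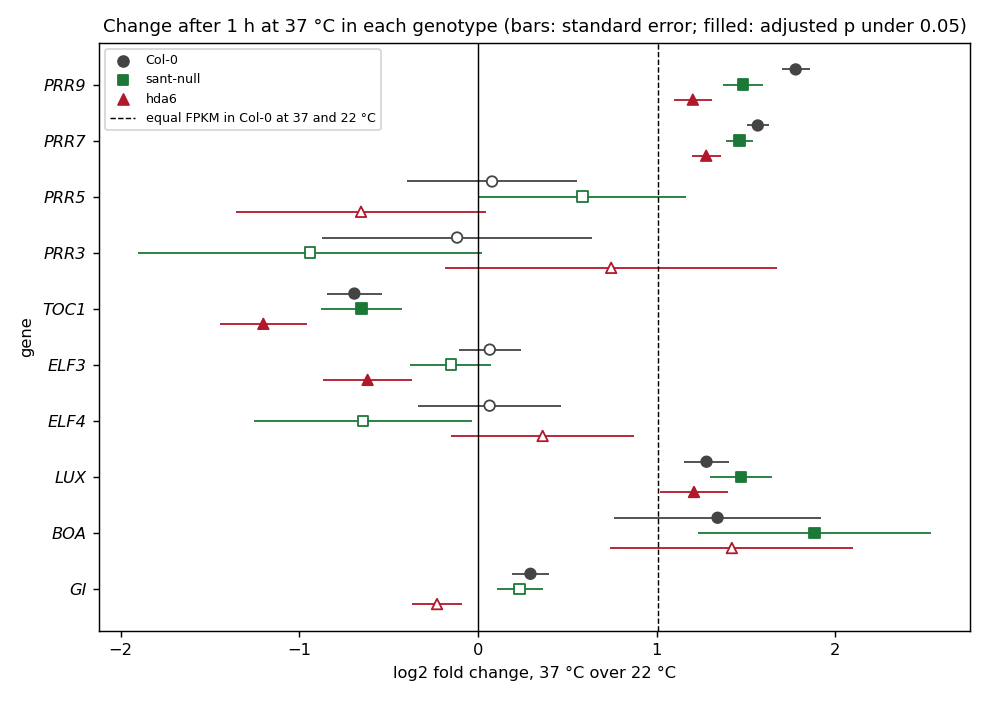
Log2 fold change from 22 °C to 37 °C with its standard error for each gene in Col-0 (circles), sant-null (squares) and hda6 (triangles); filled symbols passed the adjusted p threshold, and the dashed line marks where FPKM in Col-0 would be equal at both temperatures. PRR9, PRR7 and LUX are filled to the right of that line in all 3 genotypes, and PRR9 stands at 1.78 for Col-0, 1.48 for sant-null and 1.20 for hda6.

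Without heat 1 of the 10 genes was called in sant-null and 0 in hda6. PRR9 was higher in sant-null by 0.26 ± 0.08 (1.20-fold, adjusted p = 0.0147) in the authors' deposited table, beside 8.82% of all genes higher; 0 of 10 were lower, beside 8.98%, and at an unadjusted p under 0.05 none was. PRR3 and BOA had larger estimates that did not pass, PRR3 at 1.12 ± 0.47 (adjusted p = 0.0840) and BOA at 0.93 ± 0.49 (adjusted p = 0.190) in the authors' deposited table. For hda6 at 22 °C the authors' deposited table, from DESeq2, called 0 of the 10, beside 10.6% of all genes in either direction. At an unadjusted p under 0.05 there were 3, namely PRR9 at 0.19 ± 0.08, PRR7 at -0.14 ± 0.06 and BOA at 0.97 ± 0.49 in the authors' deposited table. The share of all genes at that unadjusted threshold is not given here, so these 3 have no background to be set against. On the FPKM scale PRR9 was called higher in hda6 at 22 °C, at 0.24, beside 7.68% of all genes. The seed marker CRA1 had an FPKM of 1.67 in sant-null at 22 °C and at most 0.178 in the other groups, and 2 of 3 shoot markers were lower in each mutant at 22 °C in the authors' deposited table. With FPKM scaling hda6 again had 2 lower, and sant-null had LHCB1.1 lower (-0.09) and RBCS1A higher (0.15). The part of these markers in the values of the clock genes at 22 °C was not tested.

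After heat 4 of the 10 genes were lower in hda6 than in Col-0 in the authors' deposited table, beside 9.41% of all genes, and 0 were higher, beside 9.06%. At an unadjusted p under 0.05 BOA alone was higher. PRR7 was lower, at -0.42 ± 0.06 (0.745-fold, adjusted p = 2.22e-12) and PRR9 lower, at -0.39 ± 0.07 (0.764-fold, adjusted p = 2.05e-06) in the authors' deposited table. GI was lower, at -0.44 ± 0.11 (0.739-fold, adjusted p = 0.0014) and ELF3 lower, at -0.56 ± 0.21 (0.679-fold, adjusted p = 0.0497) in the authors' deposited table. ELF3 lay at the edge, and with all genes in the adjustment its adjusted p was 0.0572. TOC1 (-0.32 ± 0.22), LUX (-0.16 ± 0.13) and PRR5 (-0.48 ± 0.60) did not pass in the authors' deposited table, nor did BOA at 1.05 ± 0.48 (adjusted p = 0.112), ELF4 at 0.65 ± 0.42 or PRR3 at 1.11 ± 0.75. These 4 genes were also the ones called on the FPKM scale (9.46% of all genes lower), where this comparison shifts by -0.00068.

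Heated sant-null differed from Col-0 at 2 of the 10 genes, 1 lower (4.05% of all genes) and 1 higher (4.72%). PRR7 was lower, at -0.17 ± 0.05 (0.889-fold, adjusted p = 0.0233) and BOA higher by 1.48 ± 0.43 (2.79-fold, adjusted p = 0.0113) in the authors' deposited table. On the FPKM scale PRR7 stood at -0.13 and 0 of 10 genes were lower, beside 2.65% of all genes. LUX at 0.26 ± 0.12 (adjusted p = 0.170) and PRR5 at 0.87 ± 0.46 (adjusted p = 0.299) did not pass in the authors' deposited table. BOA lay above Col-0 in the authors' deposited table in both mutants at both temperatures, between 0.93 and 1.48, and only the value in heated sant-null was called; at each temperature both mutants are set against the same Col-0 libraries, whose counts are low.

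**Figure D4:**
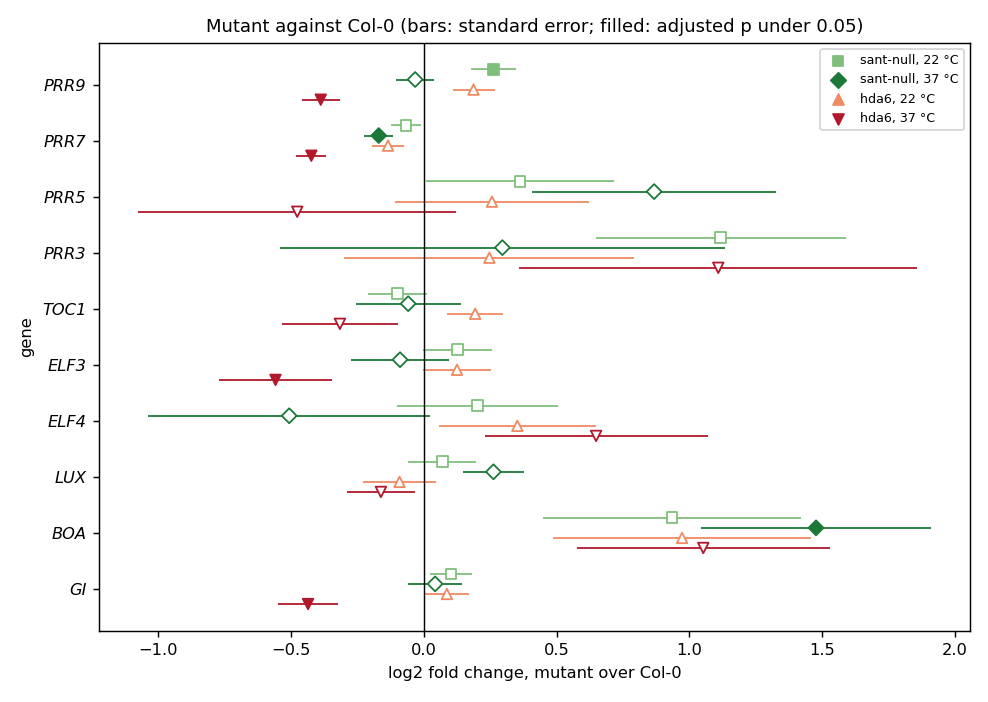
Log2 fold change of each mutant over Col-0 with its standard error at 22 °C and at 37 °C, filled where the adjusted p was under 0.05. The downward filled triangles of hda6 at 37 °C lie left of 0 for PRR9 (-0.39), PRR7 (-0.42), ELF3 (-0.56) and GI (-0.44), while the hda6 values at 22 °C are all open.

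Whether the heat response itself differed from Col-0 was tested by subtracting the mutant's log2 fold change over Col-0 at 22 °C from the one at 37 °C, in tables that share no library. For hda6 3 of 10 genes had a lower response, where 2.79% of all 23471 genes did, and 0 had a higher one, where 1.87% did. PRR9 differed by -0.58 ± 0.11 (95% interval -0.79 to -0.37, Benjamini-Hochberg adjusted p = 1.42e-05, Wald test). GI differed by -0.52 ± 0.14 (-0.80 to -0.25, adjusted p = 0.00763) and PRR7 by -0.29 ± 0.08 (-0.45 to -0.13, adjusted p = 0.0138). PRR9 and PRR7 rose less in hda6 than in Col-0, by factors of 0.671 and 0.819, and GI was 0.696 times as high as the Col-0 response would give. ELF3 at -0.68 ± 0.25 (adjusted p = 0.0980), TOC1 at -0.51 ± 0.24 (adjusted p = 0.305) and PRR5 at -0.73 ± 0.70 pointed the same way and did not pass. PRR3 (0.86 ± 0.93), ELF4 (0.30 ± 0.51) and BOA (0.08 ± 0.68) pointed upward and did not pass either. The called genes were those with the highest FPKM of the 10 in every group. The share over all genes includes genes of every level. For LUX the difference was -0.07 ± 0.19, with an interval from -0.44 to 0.30. On the FPKM scale, which shifts this comparison by -0.05, the same 3 genes were called, beside 3.46% of all genes lower.

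The marker genes moved in this comparison too. The shoot markers RBCS1A (0.37 ± 0.07), LHCB1.1 (0.24 ± 0.05) and RCA (0.17 ± 0.05) had a higher response in hda6, 3 of 3 (2 of 3 on the FPKM scale), and 0 of 3 root markers passed. The summed FPKM of the shoot markers was 12069 at 22 °C and 9900.1 at 37 °C in Col-0, 12309 and 10584 in sant-null, and 11259 and 10831 in hda6. The root markers summed to 18.7 and 3.89, 23.6 and 4.03, and 28.3 and 6.27 in the same order, with none at 0. The authors' deposited table had all 3 root markers higher in hda6 at 22 °C, and PRP3 (0.77 ± 0.16) at 37 °C. Their part in the values of the clock genes was not tested.

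For sant-null the heat response differed from Col-0 at 0 of 10 genes in the same Wald test, where 0.835% of all genes were called in either direction. PRR9 alone had an unadjusted p under 0.05, at -0.29 ± 0.11 with a 95% interval from -0.51 to -0.08 (Benjamini-Hochberg adjusted p = 0.303). The interval for GI ran from -0.31 to 0.19 and that for PRR7 from -0.26 to 0.05. Set directly against hda6 at 37 °C, sant-null was higher at PRR9 by 0.36 ± 0.10 (adjusted p = 0.0170), at PRR7 by 0.25 ± 0.08 (adjusted p = 0.0314) and at GI by 0.48 ± 0.15 (adjusted p = 0.0466). These were 3 of 10 genes where 2.08% of all genes were higher, and 0 were lower, where 1.72% were. LUX, at 0.42, was called as well with the mean of squared errors in the Wald test (adjusted p = 0.00838). At 22 °C 0 of 10 genes differed between the mutants at an adjusted p under 0.05 in this Wald test, where 2.83% of all genes were called. At an unadjusted p under 0.05 there were 0 of the 10 as well. These comparisons share the heated or unheated mutant libraries with those above and are not separate evidence.

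**Figure D5:**
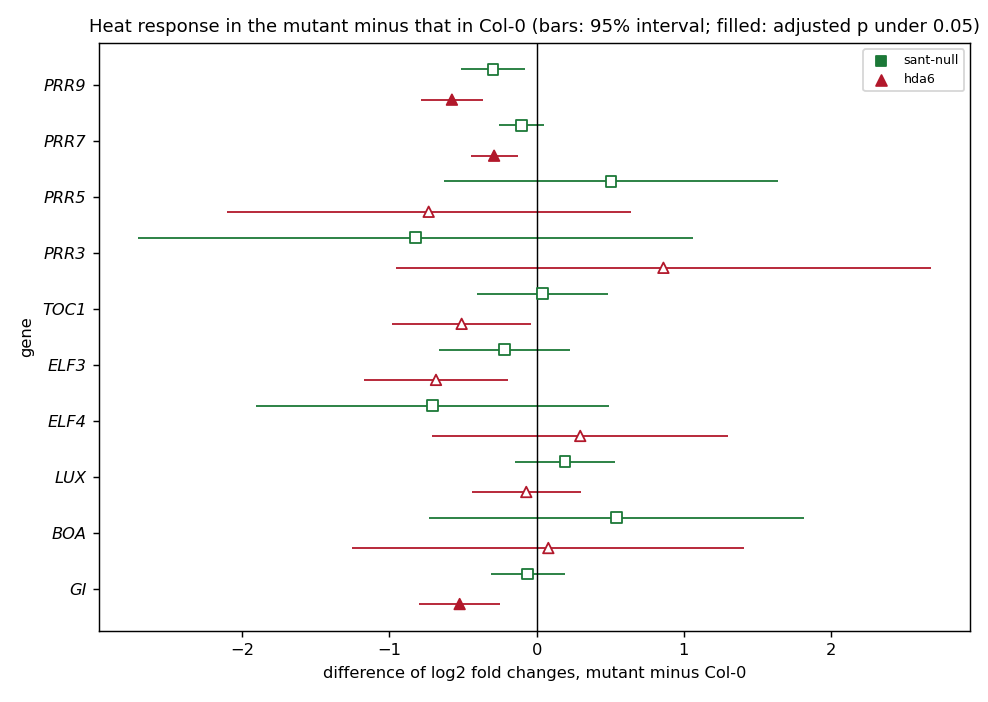
Difference between the heat response of a mutant and that of Col-0, in log2 units with its 95% interval, for sant-null (squares) and hda6 (triangles), filled where the adjusted p was under 0.05. The filled triangles are PRR9 (-0.58), PRR7 (-0.29) and GI (-0.52), all of hda6, and the intervals of PRR3, PRR5, ELF4 and BOA span more than those of the other genes.

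Genes related to these regulators were taken from 5 lists of 50 genes. Their counts with heat in Col-0 stand beside 30.1% of all genes higher and 29.9% lower, or 6.25% and 72.5% on the FPKM scale, and several lie near those shares. The morning clock genes include CCA1 and LHY, which PRR proteins repress. In heated Col-0 the authors' deposited table had 10 of 14 morning genes higher and 2 lower (median 0.94 beside -0.09 for all genes). The FPKM scale gave 4 higher and 6 lower. The MYB-like gene RVE7 had the largest rise, 3.64 ± 0.06, and LNK4, of the LNK family of clock genes, the largest fall, -0.30 ± 0.07, in the authors' deposited table. Of the clock protein partners 6 of 14 were higher and 2 lower, led by the casein kinase II subunit gene CKB3 (2.56 ± 0.07) and the photoreceptor gene PHYB (-1.23 ± 0.08) in the authors' deposited table, against 1 and 11 on the FPKM scale. The PRR co-repressors split into 3 of 7 higher and 1 lower, with TPL at 0.52 ± 0.06 and TPR1 at -0.72 ± 0.09 in the authors' deposited table, against 0 and 7 on the FPKM scale. Of the 5 relatives of the evening complex genes 3 were tested, and ELF4-L4 was higher, at 0.79 ± 0.31, in the authors' deposited table; the FPKM scale gave 0 higher and 1 lower.

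Of the clock output genes 3 of 10 rose and 2 fell in heated Col-0, from the authors' deposited table, or 2 and 6 on the FPKM scale. The authors' deposited table gave 2.55 ± 0.09 for CDF1, which represses the flowering gene CO and whose protein is removed with the help of GI, and -0.90 ± 0.09 for CDF3. PIF4, a growth gene repressed by the evening complex, was at 1.26 ± 0.06 in the authors' deposited table. On the FPKM scale PIF4 was at 0.25 with heat in Col-0 and still called higher. It was not called on that scale with heat in sant-null (-0.09) or hda6 (0.08). The heat response of hda6 was lower than that of Col-0 for CDF1 (-0.91 ± 0.14), CDF2 (-0.67 ± 0.16) and CDF3 (-0.71 ± 0.15). Adjusted p lay between 7.57e-09 and 0.00143 in the derived Wald test. These were 3 of 10 output genes, beside 2.79% of all genes with a lower response. CDF1 had an FPKM of 5.94 and 17.3 in Col-0, 7.58 and 16.1 in sant-null, and 5.85 and 8.74 in hda6.

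Among the morning genes the hda6 response was lower for 4 of 14, beside 2.79% of all genes. These were CCA1 (-0.21 ± 0.06), RVE1 (-0.41 ± 0.12), LNK2 (-0.26 ± 0.07) and LNK3 (-0.47 ± 0.10). The response was higher for 1, LHY (0.28 ± 0.09), beside 1.87% of all genes. LHY was no longer called on the FPKM scale, where 4 were lower, beside 3.46% of all genes, and 0 higher. None of the clock protein partners, co-repressors or evening complex relatives was called in this hda6 comparison, although on the FPKM scale the co-repressor gene TPL was lower (-0.27). CCA1 had an FPKM of 35.9 and 37.9 in Col-0, 34.8 and 35.5 in sant-null, and 32.7 and 28.9 in hda6. LHY, the close relative of CCA1, had 24.0 and 10.9, 23.8 and 11.7, and 24.4 and 12.9 in the same order. For sant-null the response differed at LNK2 (-0.34 ± 0.07) and PIF4 (-0.30 ± 0.08) among the 50 genes, and on the FPKM scale also at the output gene GRP7 (-0.43).

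The co-repressor genes with which PRR proteins act were also measured in heated hda6. TPL (-0.34 ± 0.06), TPR3 (-0.52 ± 0.13) and TPR4 (-0.29 ± 0.08) were lower than in Col-0 and HDA19 (0.22 ± 0.07) was higher in the authors' deposited table, 3 and 1 of 7, beside 9.41% of all genes lower and 9.06% higher. In sant-null TPL (-0.20 ± 0.05) and TPR2 (-0.22 ± 0.07) were lower at 22 °C in the authors' deposited table, 2 of 7 beside 8.98% of all genes, and neither was called on the FPKM scale. TPL was lower at 37 °C too, at -0.22 ± 0.06 in the authors' deposited table, and stayed called on the FPKM scale (-0.18). The transcription factor gene CHE, whose protein binds TOC1, was lower in both mutants at both temperatures in the authors' deposited table, between -0.45 and -0.26; at each temperature both mutants are set against the same Col-0 libraries.

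Overlap with other genes bears on the evening complex members. BOA shares 1679 of its 3655 exonic bases, 45.9%, with UGT76E1 (AT5G59580) on the opposite strand, which was listed at an FPKM of 0 in all 6 groups. LUX shares 698 of 3916 exonic bases, 17.8%, with AT3G46650 on the opposite strand, whose FPKM lay between 0.0511 and 0.140. Of 561 protein-coding genes that share at least 60% of their exonic bases with a protein-coding gene of the other strand, 72.7% were listed at 0 in all groups, against 11.3% of 21457 with no such overlap. How shared reads and strand were counted was stated in none of the sources used here, so the levels of BOA, and to a smaller extent LUX, are uncertain. The overlaps of ELF3 cover 24 and 21 bases, and the other 7 genes share no exonic base with another gene.

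Likeness of pattern was measured as the Euclidean distance over the 6 group values of log2(FPKM + 0.1), each gene centred on its mean, among genes with an FPKM of at least 1 in a group. The 10 genes were compared with each other whatever their FPKM. PRR9 and PRR7 were the nearest to each other among the 10 genes, at 0.288, with 36 of 17479 genes closer to PRR9 and 79 closer to PRR7. GI and ELF3 were at 0.364. That order turns with a pseudocount of 1, where GI and ELF3 (0.115), LUX and BOA (0.243), and PRR3 and BOA (0.259) were nearer to each other than PRR9 and PRR7 (0.261). A pseudocount of 1 flattens the values of PRR3 and BOA, which were at or under 0.246 in every group. Their FPKM moved in opposite directions with heat. The nearest of all genes were AT3G04970 for PRR9 (0.130), EER5 for PRR7 (0.122), AT1G18320 for PRR5 (0.211), RIC4 for PRR3 (0.242) and AT1G55040 for TOC1 (0.113). They were SCL3 for ELF3 (0.109), AT4G27435 for ELF4 (0.169), AT4G38020 for LUX (0.124), AT3G44716 for BOA (0.333) and CIP4.1 for GI (0.0931). With a pseudocount of 1 the nearest gene changed for 9 of the 10, and only AT3G04970 remained, so these neighbours are a description of 6 values and no more.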

How the data were processed

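The submitters' processing notes name the build TAIR10 and the tools DESeq2 1.30.1, featureCounts 2.0.1, HISAT2 2.2.1 and CASAVA, with no settings. The authors deposited FPKM as a single value per group, and 5 comparison tables. In these the deposited baseMean is a signal, the mean normalized count over the libraries compared. The log2 fold change, its standard error, the Wald score and the p-value with its adjusted p are also as deposited by the authors. Dividing the log2 fold change by its error gave that score to within 1.34e-06.

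The members, lists and tests were chosen with earlier results of these data known. All 10 members are described everywhere; of the listed genes, those called in a mutant or interaction comparison, or with the largest rise or fall with heat in Col-0, may be named; BOA, LUX and ELF3 overlaps, and CCA1, LHY and CDF1 levels, were added after values were seen. Besides the 5 deposited comparisons, 6 were derived by 2-sided Wald tests on combined log2 fold changes, with Benjamini-Hochberg adjustment over all genes with a value. For interactions squared errors add. For heat within a mutant and for sant-null against hda6 the summed squared errors of the mutant tables are an upper bound. The derivation was tested on simulated data. The FPKM scale moves each comparison by the median of log2 FPKM ratio minus deposited log2 fold change over genes with an FPKM of at least 1 in both groups. Alternatives were that scale, a filter on low FPKM, no independent filtering, an adjusted p under 0.01, the mean of squared errors, a pseudocount of 1 in place of 0.1, and, chosen after seeing the data, only genes with a deposited adjusted p.

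The deposited files hold no coordinates, and all 32548 genes were matched by identifier to RefSeq TAIR10.1, from which positions, exons and promoters were read. Gene lengths behind FPKM matched its exon lengths within 2% for 99.4% of 13582 genes checked. SANT1 to SANT4 were not analysed here. Python 3.11.15, numpy 2.4.6, pandas 2.3.3, scipy 1.17.1 and matplotlib 3.10.9 were used.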

Additional observations from a re-analysis of the deposited data

Results flagged for a closer look

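In 3 genes the heat response of hda6 differed from that of Col-0 by a test of the difference itself, a 2-sided Wald test with Benjamini-Hochberg adjustment over all genes. The response of PRR9 differed by -0.58 on the log2 scale, that of GI by -0.52 and that of PRR7 by -0.29. The shoot markers RBCS1A, LHCB1.1 and RCA moved the other way in the same comparison, and their part in these values was not tested.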

How the results depend on the processing

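No paired analysis was possible because the FPKM table holds a single value per group. For the same reason a limma fit and leaving out each library were not run. On the FPKM scale, heat in Col-0 gave 3 genes higher and 4 lower, heat in sant-null 4 lower, heat in hda6 1 higher and 4 lower, sant-null at 37 °C 0 lower, and hda6 at 22 °C 1 higher. On it the direction turned for PRR5 (-0.93), ELF3 (-0.94), ELF4 (-0.94) and GI (-0.72) with heat in Col-0, PRR5 (-0.47) and GI (-0.82) in sant-null, and PRR3 (-0.32) and ELF4 (-0.70) in hda6. It also turned for PRR7 in sant-null at 22 °C (0.020), PRR9 in sant-null at 37 °C (0.010) and TOC1 in the sant-null interaction (-0.0057). These moves follow from the shift itself.

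At an adjusted p under 0.01, heat in sant-null left 0 genes lower, heat in hda6 1 lower, sant-null at 22 °C 0 higher, sant-null at 37 °C 0 higher and 0 lower, and sant-null against hda6 at 37 °C 0 higher. BOA was also lost with heat in Col-0, and ELF3 in hda6 against Col-0 at 37 °C. All genes called at 0.01 numbered 1203 for sant-null at 37 °C (1906 at 0.05), 1570 for hda6 at 22 °C (2486), 108 (196) and 619 (1094) for the interactions of sant-null and hda6, and 440 (699) for the mutants against each other at 22 °C. For the other comparisons the number of all genes called at 0.01 is not given here. PRR9 and GI stayed called in the hda6 interaction, and PRR7 did not. The filter on low FPKM removed BOA and left 0 genes higher in sant-null at 37 °C. With the mean of squared errors, sant-null against hda6 gave 2308 genes at 22 °C and 2447 at 37 °C (886), an effect of the smaller errors; among the 10 genes it added GI with heat in sant-null, BOA and GI with heat in hda6, and LUX between the heated mutants. The share of calls that were higher also moved on the FPKM scale where heat was not the contrast: 49.6% to 77.7% and 53.8% to 68.1% for sant-null at 22 °C and 37 °C, 57.5% to 77.2% for hda6 at 22 °C, 59.7% to 39.2% and 40.0% to 22.2% for the interactions of sant-null and hda6, and 34.5% to 47.4% and 54.7% to 67.2% for the mutants against each other, unheated and heated. Restricting to genes with a deposited adjusted p, chosen after seeing the data, changed no call on the 10 genes. Low counts limit PRR3, BOA, PRR5 and ELF4.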
